A study of Mus musculus with 6 samples.

Results

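Calcium and sodium channels and ion pumps of cultured mouse neurons were followed through potassium chloride depolarisation in 36 genes, out of 21553 genes with values. The genes were picked by name as pore subunits, auxiliary subunits or pumps, and each symbol was matched to the Ensembl identifier under which the deposited tables list it. They comprise 13 pore subunits, 15 auxiliary subunits and 8 pumps and exchangers. Hippocampal neurons came from C57bl/6 mouse embryos at stage E16.5 and had spent 10 days in culture. RNA was sequenced from untreated neurons and from neurons depolarised with KCl at 55 mM, collected at 0.5 h or at 3 h. Each of the 3 groups has 2 libraries. The labels call these biological duplicates but do not say what was repeated, and p-values therefore reflect how far these particular libraries differ. No genotype or drug other than KCl is named for any group.

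Voltage-gated sodium channels carry the upstroke of the action potential, and voltage-gated calcium channels turn the resulting depolarisation into calcium entry. In both families a large pore-forming alpha subunit carries the current, while smaller auxiliary subunits set its trafficking and gating. Calcium is then removed by plasma membrane pumps (PMCA), by sodium-calcium exchangers and by uptake into the endoplasmic reticulum (SERCA), and the sodium-potassium pump restores the sodium gradient. Raised external potassium depolarises the membrane and lets calcium enter through voltage-gated calcium channels.

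The libraries held 98882007 to 141865913 counts. The 36 genes took 0.674% and 0.733% of the counts in untreated libraries, 0.657% and 0.677% at 0.5 h, and 0.597% and 0.492% at 3 h. All 36 passed the filter on low counts, and 34 had over 900 counts and more than 1 cRPKM in every library. cRPKM is the authors' read density. The labels do not define it, and it was taken as reads scaled to effective gene length and library size. Levels below are in this unit. The immediate early gene Fos checked the treatment: it stood at 7.98 and 8.14 cRPKM in untreated libraries, 236.75 and 222.75 at 0.5 h, and 344.26 and 271.36 at 3 h. Markers of neurons and of glia were all detected, whereas markers of microglia summed to at most 1.26 cRPKM and those of endothelium to at most 0.48 cRPKM in any library.

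The levels spanned a wide range before stimulation. Atp1b1, the beta subunit of the sodium-potassium pump, was the highest of the 36 with 435.92 and 571.07 cRPKM in untreated libraries, followed by the endoplasmic reticulum pump gene Atp2a2 with 138.18 and 148.35 cRPKM. Among pores, the sodium channel gene Scn2a led with 43.12 and 47.27 cRPKM, and the N-type channel gene Cacna1b led the calcium pores with 31.64 and 29.65 cRPKM. The remaining leaders of their families in untreated libraries were Cacna1h for T-type channels (16.81 and 16.09 cRPKM), Cacna2d3 for alpha2delta subunits (37.07 and 41.53 cRPKM) and Cacnb3 for calcium channel beta subunits (38.67 and 35.96 cRPKM). Cacng7 led the gamma family (56.77 and 59.13 cRPKM), Scn3b the sodium channel beta subunits (63.81 and 55.71 cRPKM), Atp2b1 the PMCA pumps (89.97 and 81.33 cRPKM) and Slc8a2 the exchangers (72.41 and 78.04 cRPKM). Scn9a, the sodium channel of sensory neurons, lay at 0.19 to 0.21 cRPKM and Scn4b at 0.04 to 0.06 cRPKM in all 6 libraries. Both genes were near the bottom of the measurable range, and Scn4b had 21 counts in its lowest library.

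**Figure D1:**
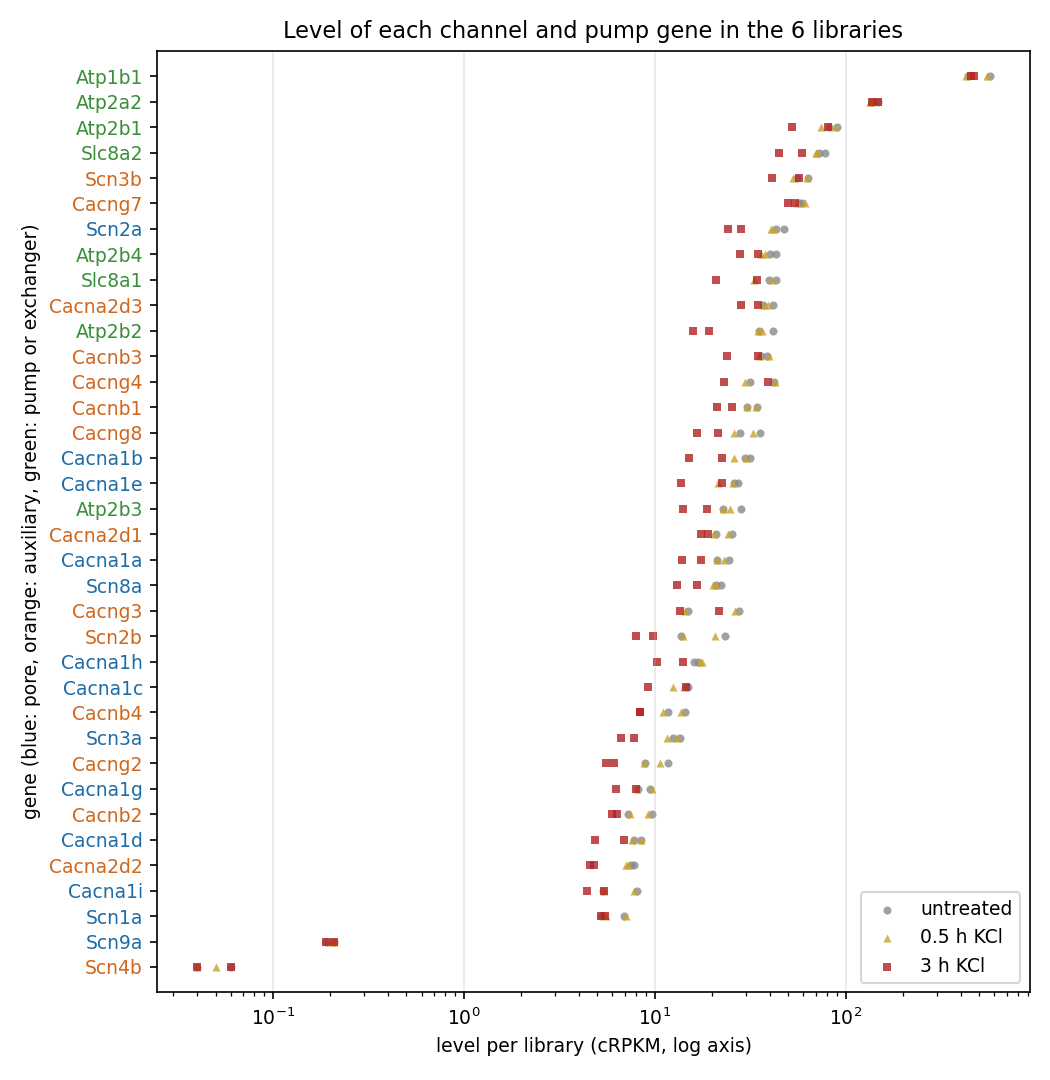
Level of each of the 36 genes in the 6 libraries (cRPKM, log axis), sorted by level, with grey circles for untreated, yellow triangles for 0.5 h and red squares for 3 h KCl. Both 3 h squares lie left of both untreated circles for 26 genes and left of both 0.5 h triangles for 25, while Atp1b1 and Atp2a2 keep their place at the top.

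After 0.5 h of KCl no channel or pump gene was called. edgeR's quasi-likelihood test, with Benjamini-Hochberg adjustment over 15895 genes and a threshold of 0.05, placed 0 of the 36 higher and 0 lower, against 0.0377% of all tested genes higher and 0.0% lower. None of the 36 reached an unadjusted p under 0.05, and DESeq2 and limma-voom also called 0. The log2 changes ran from -0.20 to 0.07 with a median of -0.09, where the median of all tested genes was 0.00. They were negative for 33 genes (91.7%, against 49.9% of all tested genes). Both 0.5 h libraries lay below both untreated libraries for 8 genes (22.2%, against 6.38% of all tested genes). They lay above both for 1 of the 36, against 2354 of all 15895 tested genes. That gene was the T-type channel gene Cacna1h (17.58 and 17.36 cRPKM at 0.5 h, against 16.81 and 16.09 cRPKM in untreated libraries). By class the medians were -0.07 for pores, -0.07 for auxiliary subunits and -0.13 for pumps.

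At 3 h, 6 of the 36 genes were lower than in untreated neurons and 0 were higher. These were the sodium pores Scn2a and Scn3a, the auxiliary subunits Cacna2d2, Cacnb4 and Cacng2, and the calcium pump Atp2b2, which fell by 33.4% to 52.5% in the fit. The 6 genes make up 16.7% of the 36, against 6.84% of all tested genes called lower, and the count of 0 higher stands against 8.71% called higher. At an unadjusted p under 0.05 the counts were 14 lower and 0 higher, against 2633 lower and 2835 higher of all 15895 tested genes. The median log2 change of the 36 was -0.40, against -0.02 for all tested genes. Both 3 h libraries lay below both untreated libraries for 26 genes (72.2%, against 35.9% of all tested genes). For 0 of the 36 did both lie above, against 3831 of all 15895 tested genes. Scaling by library totals in place of TMM left the 6 calls as they were, while over all genes it gave 1115 higher and 1340 lower calls in place of 1384 and 1088.

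The 3 classes did not separate by count or by median. Of the pores 2 of 13 were lower (15.4%, median log2 change -0.41), of the auxiliary subunits 3 of 15 (20.0%, median -0.29) and of the pumps and exchangers 1 of 8 (12.5%, median -0.41). Both 3 h libraries lay below both untreated ones for 9 pores, 11 auxiliary subunits and 6 pumps. The difference between classes was not tested. With the replicate number as a block, 12 of the 36 were lower (33.3%, against 18.6% of all tested genes): 6 pores, 4 auxiliary subunits and 2 pumps. The 6 added there were Cacna1b, Cacna1d, Cacna1i, Scn8a, Scn2b and Slc8a1.

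**Figure D2:**
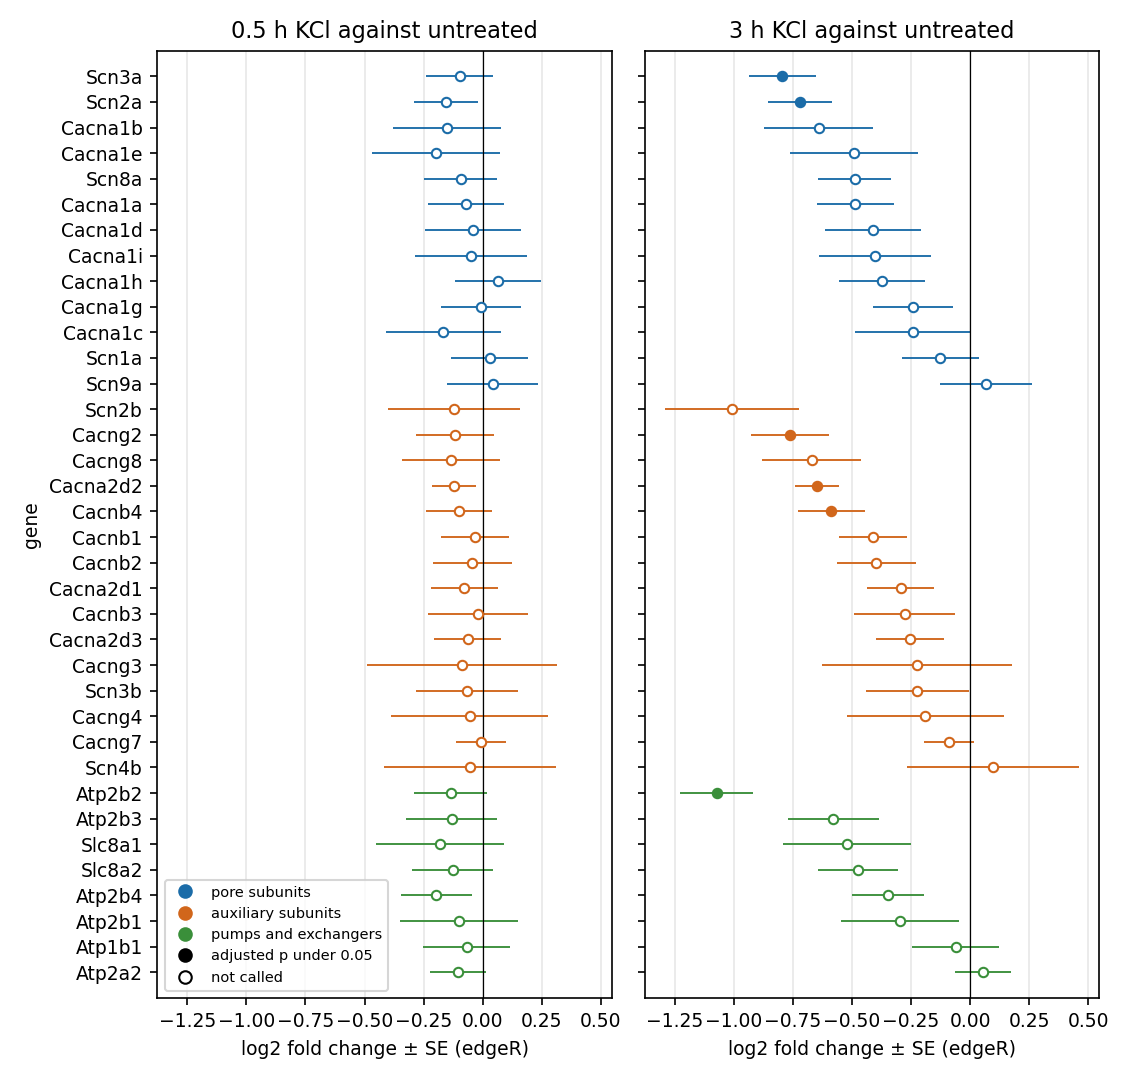
Log2 fold change with its SE from edgeR for each gene, at 0.5 h (left) and 3 h (right) of KCl against untreated, coloured by class and filled where the adjusted p was under 0.05. The 0.5 h changes sit within -0.20 and 0.07, and at 3 h the 6 filled points come from all 3 classes.

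The 2 sodium channel pores that fell at 3 h are both known from rodent brain as channels prominent early in development. Scn2a (ENSMUSG00000075318, chromosome 2) encodes Nav1.2, which sits in unmyelinated axons and in the initial segment of young excitatory neurons. It measured 43.12 and 47.27 cRPKM in untreated libraries, 40.84 and 41.54 at 0.5 h, and 28.43 and 24.23 at 3 h. The untreated and 0.5 h libraries ranged close together and both 3 h libraries lay well below all 4. At 3 h against untreated its log2 change was -0.72 ± 0.13 (SE; edgeR adjusted p = 0.026). Scn3a (ENSMUSG00000057182, chromosome 2) encodes Nav1.3, the channel of embryonic brain. Its libraries held 13.57 and 12.52 cRPKM untreated, 13.09 and 11.65 at 0.5 h, and 7.77 and 6.66 at 3 h, so that the 3 h pair again stood apart from the other 4. The log2 change at 3 h was -0.80 ± 0.14 (adjusted p = 0.023).

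The other sodium pores divided. Scn8a, which encodes Nav1.6, the main channel of the mature initial segment, held 21.0 and 22.27 cRPKM in untreated libraries, 20.17 and 20.98 at 0.5 h, and 16.55 and 13.01 at 3 h. Its groups did not overlap at 3 h, but the call depended on the fit. The log2 change of -0.49 ± 0.16 had an edgeR adjusted p of 0.087 without the block and 0.044 with it. Of 6 alternative fits of all libraries, the block among them, 3 called Scn8a. Scn1a, the Nav1.1 gene used by inhibitory interneurons, held 5.21 and 5.49 cRPKM at 3 h, against 5.22 and 6.92 cRPKM in untreated libraries, and these groups overlapped. Its log2 change was -0.13 ± 0.16 (adjusted p = 0.62), and that of Scn9a was 0.07 ± 0.19. Scn1a, Scn2a, Scn3a and Scn9a are neighbours on chromosome 2, and 2 of these 4 were called. The sum of the 5 sodium pores was 83.1 and 89.19 cRPKM in untreated libraries, 79.84 and 81.44 at 0.5 h, and 58.15 and 49.6 at 3 h. Within that sum the share of Scn2a was 48.9% in both 3 h libraries against 51.9% and 53.0% in untreated libraries, and the share of Scn1a was 8.96% and 11.1% at 3 h against 6.28% and 7.76%.

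**Figure D3:**
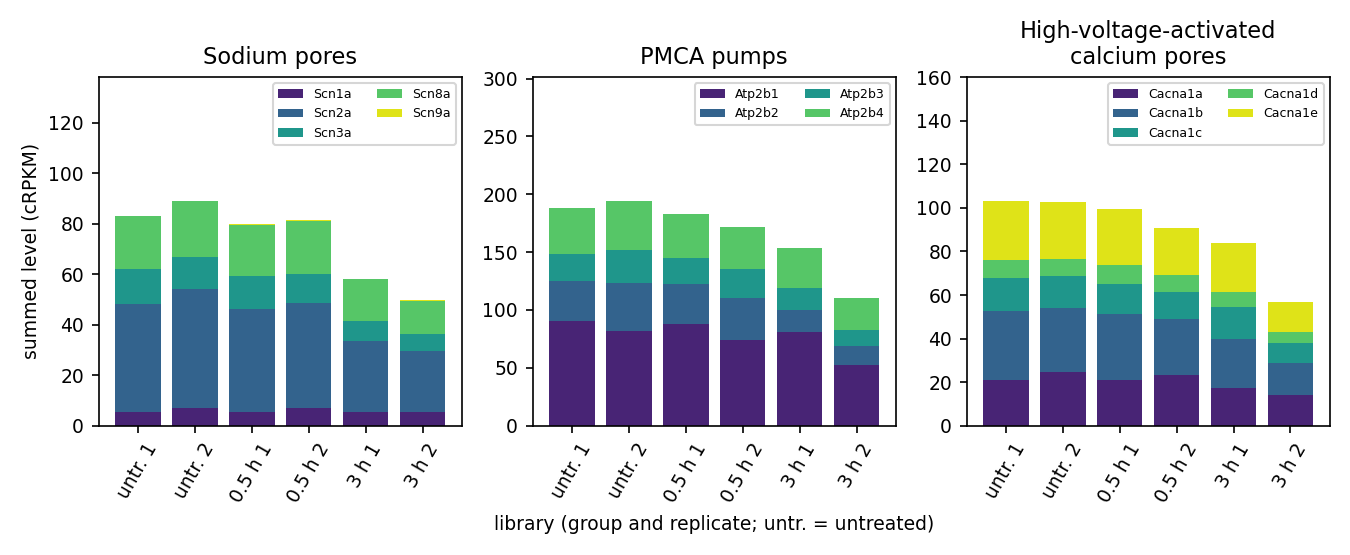
Summed level (cRPKM) of the sodium pores, the PMCA pumps and the high-voltage-activated calcium pores in each of the 6 libraries, stacked by gene. In all 3 families both 3 h bars are lower than the other 4, and the 3 h replicate 2 bar is the lowest (49.6, 110.5 and 56.6 cRPKM).

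With TMM-scaled edgeR on all 6 libraries and no block, none of the 8 calcium channel pores was called at 3 h. All 8 had negative log2 changes, from -0.24 to -0.64. Cacna1b, the pore of N-type channels at presynaptic terminals, had the lowest: it held 31.64 and 29.65 cRPKM in untreated libraries, 29.95 and 25.97 at 0.5 h, and 22.54 and 15.05 at 3 h. Both 3 h libraries were below the others, but they differed from each other by more than the untreated pair did. The log2 change was -0.64 ± 0.23, with an edgeR adjusted p of 0.11 without the block and 0.023 with it. Of 6 alternative fits of all libraries, the block among them, 2 called Cacna1b. Cacna1d, an L-type pore of the kind that couples calcium entry to gene transcription, held 8.49 and 7.78 cRPKM in untreated libraries, 8.47 and 7.56 at 0.5 h, and 6.86 and 4.84 at 3 h (log2 change -0.41 ± 0.20; adjusted p = 0.21, and 0.045 with the block). For the T-type pore Cacna1i the values were 5.38 and 8.11 cRPKM untreated, 5.45 and 7.82 at 0.5 h, and 4.43 and 5.41 at 3 h. Its 3 h and untreated groups overlapped, because replicate 2 was higher than replicate 1 in each group, and the log2 change of -0.40 ± 0.24 had an adjusted p of 0.29, or 0.044 with the block. Cacna1h measured 16.81 and 16.09 cRPKM untreated, 17.58 and 17.36 at 0.5 h, and 14.07 and 10.26 at 3 h (log2 change -0.37 ± 0.18; adjusted p = 0.21).

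The remaining calcium pores were Cacna1a (P/Q-type), Cacna1c (L-type), Cacna1e (R-type) and Cacna1g (T-type), with log2 changes of -0.49, -0.24, -0.49 and -0.24 at 3 h. Of these Cacna1c alone had overlapping groups, at 14.61 and 9.18 cRPKM at 3 h, against 14.85 and 14.57 cRPKM in untreated libraries. The 5 high-voltage-activated pores summed to 103.4 and 102.7 cRPKM in untreated libraries, 99.4 and 90.6 at 0.5 h, and 84.1 and 56.6 at 3 h.

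Of the 15 auxiliary subunits, 3 fell at 3 h, 1 from each of the alpha2delta, beta and gamma families of calcium channel subunits. Cacna2d2 (ENSMUSG00000010066, chromosome 9) encodes alpha2delta-2, a gabapentin-binding subunit that carries channels to the membrane. It had the tightest values of the 6: 7.47 and 7.83 cRPKM untreated, 7.22 and 7.06 at 0.5 h, and 4.80 and 4.58 at 3 h. The log2 change was -0.65 ± 0.09 (adjusted p = 0.014). Cacnb4 (ENSMUSG00000017412, chromosome 2) encodes the cytoplasmic beta-4 subunit, which is lost in the lethargic mouse. Its libraries held 11.71 and 14.48 cRPKM untreated, 11.08 and 13.75 at 0.5 h, and 8.35 and 8.41 at 3 h. Here the untreated libraries differed from each other more than the 3 h pair, and the change of -0.59 ± 0.14 passed only narrowly (adjusted p = 0.046). The kit does not mark the strand, and 16.0% of the exon bases of Cacnb4 are shared with A430018G15Rik in the annotation used, so their reads cannot be told apart there. Cacng2 (ENSMUSG00000019146, chromosome 15) encodes stargazin, which despite its name as a calcium channel gamma subunit is best known for carrying AMPA receptors to synapses. It measured 8.89 and 11.75 cRPKM untreated, 8.75 and 10.59 at 0.5 h, and 6.12 and 5.55 at 3 h, with both 3 h libraries below the other 4 and a log2 change of -0.76 ± 0.17 (adjusted p = 0.036).

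Scn2b, the sodium channel beta-2 subunit that is bound covalently to the pore, had the most negative log2 change of the auxiliary subunits. TMM-scaled edgeR without the block did not call it, while 2 of 6 alternative fits of all libraries, the block among them, did. Scn2b held 13.80 and 23.21 cRPKM in untreated libraries, 14.00 and 20.59 at 0.5 h, and 7.93 and 9.81 at 3 h. The 3 h pair was below every other library, while replicate 2 exceeded replicate 1 in each group. The log2 change was -1.01 ± 0.28, with an adjusted p of 0.065 without the block and 0.0076 with it. Cacng8, the AMPA receptor auxiliary subunit most typical of hippocampus, did not overlap between groups either. It held 21.51 and 16.58 cRPKM at 3 h, against 27.87 and 35.53 cRPKM in untreated libraries (log2 change -0.67 ± 0.21, edgeR adjusted p = 0.084). Its neighbour on chromosome 7, Cacng7, stood at 54.61 and 49.99 cRPKM at 3 h, against 56.77 and 59.13 cRPKM in untreated libraries (log2 change -0.09 ± 0.11; adjusted p = 0.59).

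The leading genes of the sodium beta, alpha2delta and calcium beta families, Scn3b, Cacna2d3 and Cacnb3, had smaller log2 changes than the genes called. Cacna2d3 and Cacnb3 belong to the families of the called Cacna2d2 and Cacnb4. Scn3b held 63.81 and 55.71 cRPKM untreated, 63.03 and 52.69 at 0.5 h, and 57.01 and 41.04 at 3 h (log2 change -0.22 ± 0.22). Cacna2d3 held 37.07 and 41.53 cRPKM untreated, 37.22 and 39.1 at 0.5 h, and 34.75 and 28.44 at 3 h (log2 change -0.25 ± 0.14). Cacnb3 held 38.67 and 35.96 cRPKM untreated, 39.45 and 35.17 at 0.5 h, and 34.89 and 24.04 at 3 h (log2 change -0.28 ± 0.21). In each of the last pair both 3 h libraries were below both untreated ones, by little in replicate 1. The other auxiliary genes, Cacna2d1, Cacnb1, Cacnb2, Cacng3, Cacng4 and Scn4b, had log2 changes between -0.41 and 0.10 and none was called.

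Promoter windows of 300 bases, 250 before and 50 after the start of transcription, were read from RefSeq (build GRCm38.p6) for 28 of the 36 genes, 41 windows in all. Scn3a, Scn3b, Cacna1a, Cacna1g, Cacna1h, Cacng4, Atp2a2 and Atp2b3 had no entry. The windows of 3 called genes are shown as examples of high, middle and low GC content, with CG dinucleotides in capitals: Cacna2d2 (chr9:107399630-107399929, plus strand, 75.7% GC), Cacng2 (chr15:78119231-78119530, minus strand, 61.0% GC) and 1 of the windows of Scn2a, the lowest in GC of the 41 (chr2:65620519-65620818, plus strand, 33.0% GC).
Cacna2d2: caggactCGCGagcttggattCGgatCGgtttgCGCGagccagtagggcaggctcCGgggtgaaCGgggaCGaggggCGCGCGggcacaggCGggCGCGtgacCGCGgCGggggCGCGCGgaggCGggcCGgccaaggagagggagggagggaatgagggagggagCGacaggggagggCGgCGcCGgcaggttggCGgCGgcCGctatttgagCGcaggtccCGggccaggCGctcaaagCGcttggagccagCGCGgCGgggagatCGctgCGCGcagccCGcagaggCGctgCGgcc
Cacng2: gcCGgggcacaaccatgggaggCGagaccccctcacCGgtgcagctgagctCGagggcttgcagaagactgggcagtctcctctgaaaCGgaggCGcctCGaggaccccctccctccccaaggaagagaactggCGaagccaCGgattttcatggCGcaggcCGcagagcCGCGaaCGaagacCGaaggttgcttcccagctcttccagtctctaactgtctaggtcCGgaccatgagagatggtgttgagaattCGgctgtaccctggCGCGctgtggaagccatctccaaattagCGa
Scn2a: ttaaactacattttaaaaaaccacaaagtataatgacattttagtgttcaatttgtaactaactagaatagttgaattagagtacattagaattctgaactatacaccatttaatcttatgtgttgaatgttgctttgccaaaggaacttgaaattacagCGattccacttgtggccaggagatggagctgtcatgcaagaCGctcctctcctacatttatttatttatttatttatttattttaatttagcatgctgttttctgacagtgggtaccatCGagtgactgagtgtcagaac
Cacna2d2 holds 43 CG dinucleotides in its window, Cacng2 20 and this Scn2a window 3. The other Scn2a window has 47.7% GC, the 3 windows of Atp2b2 have 58.7%, 54.0% and 72.7% GC, and the 3 of Cacnb4 have 49.7%, 69.7% and 78.3% GC. The windows of all matched genes ran from 33.0% to 87.3% GC. The median over the 41 windows was 61.0% GC and 12 CG dinucleotides, against 52.7% and 7 over all 32851 RefSeq windows. Letters of 5 motifs were searched on both strands. The cAMP response element TGACGTCA was in 0 of the 41 windows and in 1.79% of all windows, the AP-1 site TGANTCA in 0 and 7.81%, and the EGR site GCGTGGGCG in 0 and 0.612%. The E-box CACGTG was in 1 window, of Atp2b1, and in 7.15% of all, and the REST-type site TTCAGCACC in 0 and 0.371%. The absence of a match says only that these letters are not in this window.

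Among pumps and exchangers Atp2b2 stood out by size. Atp2b2 (ENSMUSG00000030302, chromosome 6) encodes PMCA2, a fast plasma membrane calcium pump of neurons and hair cells. Its libraries held 35.05 and 41.82 cRPKM untreated, 34.68 and 36.35 at 0.5 h, and 19.20 and 15.83 at 3 h. The 3 h libraries were far below the other 4, and the log2 change of -1.07 ± 0.16 (adjusted p = 0.014) was the most negative of the 36. Its share of the summed PMCA level was 12.5% and 14.3% at 3 h, against 18.6% and 21.5% in untreated libraries, and it ranked 19 by level among the 36 genes at 3 h, against 11 in untreated libraries. The other PMCA genes were not called. Atp2b1 held 89.97 and 81.33 cRPKM untreated, 87.83 and 74.28 at 0.5 h, and 80.68 and 52.62 at 3 h (log2 change -0.30 ± 0.25). Atp2b3 and Atp2b4 had log2 changes of -0.58 and -0.35, and for both the 3 h libraries lay below the untreated ones. All 4 PMCA genes were therefore lower in both 3 h libraries, but only Atp2b2 passed the test, and the difference between the paralogs was not tested.

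The sodium-calcium exchangers gave similar log2 changes to each other. Slc8a1 (NCX1) held 43.06 and 39.87 cRPKM untreated, 40.94 and 33.2 at 0.5 h, and 34.27 and 20.89 at 3 h, for a log2 change of -0.52 ± 0.27 with an adjusted p of 0.23 without the block and 0.048 with it. Slc8a2 (NCX2) held 72.41 and 78.04 cRPKM untreated, 70.08 and 69.71 at 0.5 h, and 58.94 and 44.75 at 3 h (log2 change -0.48 ± 0.17; adjusted p = 0.12). Neither group pair overlapped.

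The most abundant pump genes differed from these. Atp2a2, which encodes SERCA2, the pump that fills the endoplasmic reticulum, held 138.18 and 148.35 cRPKM untreated, 134.12 and 136.26 at 0.5 h, and 147.60 and 137.99 at 3 h. Its 3 h and untreated groups overlapped, with a log2 change of 0.05 ± 0.12 (adjusted p = 0.78). Atp1b1 held 435.92 and 571.07 cRPKM untreated, 427.16 and 549.16 at 0.5 h, and 473.0 and 454.42 at 3 h, also overlapping (log2 change -0.06 ± 0.18; adjusted p = 0.84). In the annotation 18.7% of the Atp1b1 exon bases are shared with Nme7, and 14 of the 36 genes share some exon bases with another gene.

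**Figure D4:**
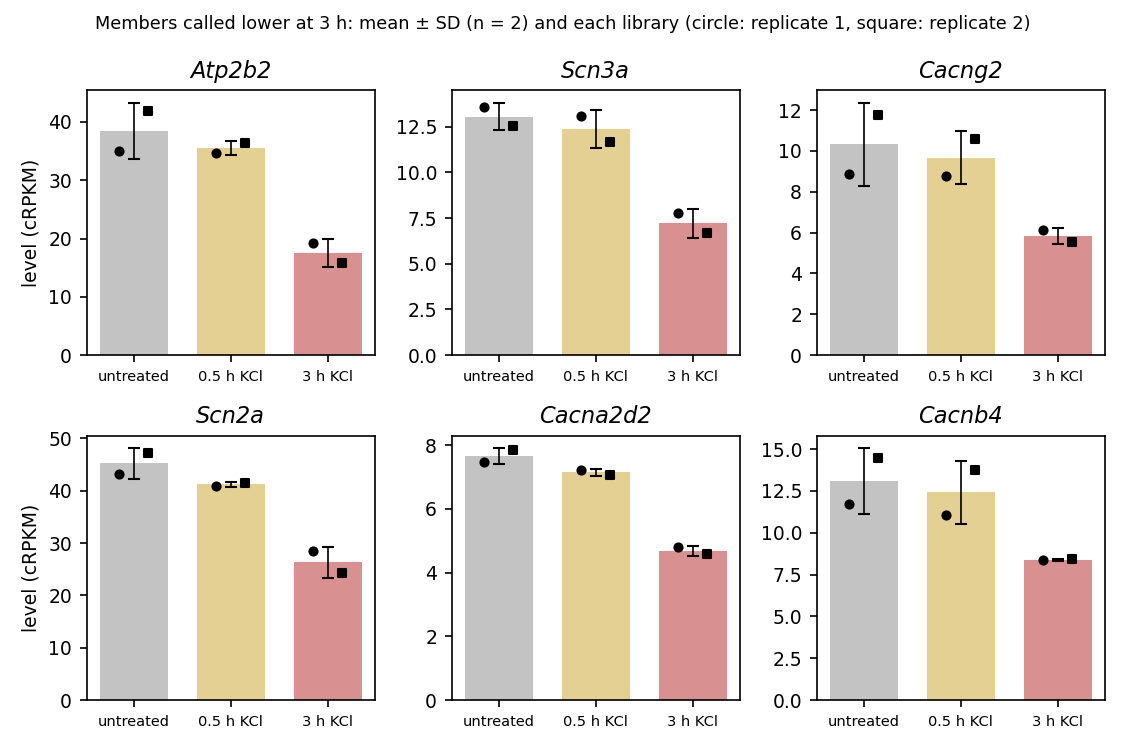
Level (cRPKM) of the 6 genes called lower at 3 h, as mean ± SD of 2 libraries per group (bars) with each library as a point (circle for replicate 1, square for replicate 2). Each panel shows both 3 h points below all untreated and 0.5 h points.

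The call of each of the 6 rested on few libraries. Without untreated replicate 1 or untreated replicate 2, edgeR called 0 of the 36, and over all genes only 16 and 4 were then called lower. Leaving out a 0.5 h or a 3 h library also moved the number called, and that number is not read as a result about the 36 genes. The median log2 change over the 36 was -0.67 without 3 h replicate 1 and -0.17 without 3 h replicate 2, and without the same libraries in turn it was -0.71 and -0.14 for pores, -0.60 and -0.23 for auxiliary subunits and -0.72 and -0.16 for pumps. Without untreated replicate 1 it was -0.49 for auxiliary subunits. The adjusted p without untreated replicate 1 was 0.069 for Atp2b2, 0.090 for Cacna2d2, 0.11 for Scn3a, 0.11 for Scn2a, 0.073 for Cacng2 and 0.096 for Cacnb4, and without untreated replicate 2 it was 0.099, 0.12, 0.11, 0.17, 0.19 and 0.25 in the same order. The log2 change kept its sign in each of these fits, from -0.44 for Cacnb4 to -1.19 for Atp2b2. Scn2a and Cacng2 also lost their call without either 0.5 h library (adjusted p 0.059 to 0.063), Cacng2 and Scn3a without 3 h replicate 2 (0.12 and 0.059), and Cacnb4 in each of the 6 fits (0.070 to 0.25).

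The size of the 3 h change differed between replicate numbers. Computed within number, the median log2 ratio of 3 h to untreated over the 36 genes was -0.17 for replicate 1 and -0.65 for replicate 2. Over all tested genes these medians were -0.01 and -0.03. All 36 had a lower ratio in replicate 2. Ratios were negative in both numbers for 28 of the 36. Replicate 2 lay below replicate 1 for 32 of the 36 at 3 h, 17 at 0.5 h and 11 in untreated libraries. Among the genes called, Scn3a had the closest pair of ratios (-0.72 and -0.89), and Atp2b2 had -0.78 and -1.38.

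**Figure D5:**
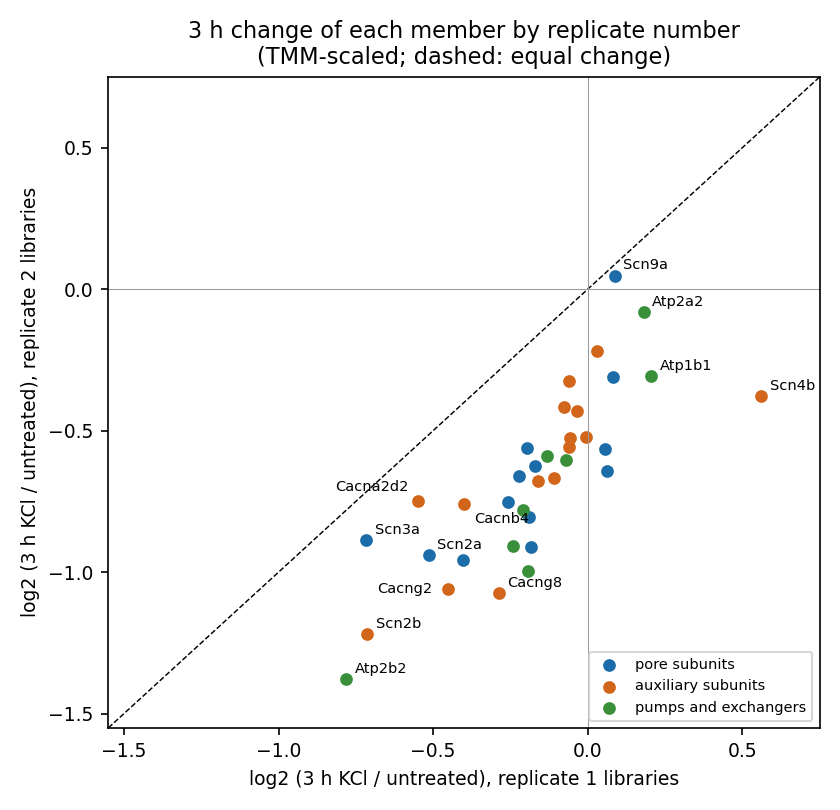
Log2 ratio of 3 h KCl to untreated for each of the 36 genes in replicate 1 (horizontal) and replicate 2 (vertical), coloured by class, with the line of equal change dashed. All 36 points lie below the line, 28 of them with both ratios negative.

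Markers of cell types moved in the same libraries. The 6 pan-neuronal markers summed to 1365 and 1289 cRPKM in untreated libraries, 1300 and 1183 at 0.5 h, and 959.9 and 755.6 at 3 h. Their median log2 ratio of 3 h to untreated was -0.06 in replicate 1 and -0.69 in replicate 2. Unblocked, 0 of the 6 passed the test: Tubb3 had a log2 change of -1.30 (edgeR adjusted p = 0.051, and 0.0031 with the block) and Map2 one of -0.09. The 5 markers of excitatory neurons summed to 392.2 and 530.1 cRPKM untreated, 378.8 and 479.1 at 0.5 h, and 325.6 and 278.2 at 3 h, and the 5 of interneurons to 322.8 and 539.2, 310.9 and 521.3, and 244.1 and 355.2. Astrocyte markers went the other way, with sums of 695.2 and 1105 cRPKM untreated, 699.2 and 1225 at 0.5 h, and 749.6 and 1691 at 3 h, and a median log2 change of 0.45 at 3 h over 5 genes of which 0 were called. Progenitor markers did likewise, with sums of 78.7 and 66.0 cRPKM untreated, 75.4 and 69.4 at 0.5 h, and 97.4 and 78.7 at 3 h, and a median log2 change of 0.57 over 5 genes of which 0 were called. With the replicate block, 2963 of all 15895 tested genes were higher at 3 h and 2955 (18.6%) lower. In that fit 3 of 5 astrocyte and 4 of 5 progenitor markers were higher. Lower were 2 of 6 pan-neuronal, 1 of 5 excitatory and 3 of 5 interneuron markers. In bulk RNA, fewer cells of a type and less RNA per cell cannot be told apart, and the part of these markers in the lower channel levels was not tested.

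At 3 h against 0.5 h, 3 of the 36 genes were lower and 0 higher, against 4.87% of all tested genes lower and 6.39% higher. They were Atp2b2 (log2 change -0.94 ± 0.16, edgeR adjusted p = 0.024), Scn3a (-0.70 ± 0.14, adjusted p = 0.038) and Cacna2d2 (-0.53 ± 0.09, adjusted p = 0.028), thus 1 from each class. This comparison is also the test of whether the KCl effect differed between both times, since the untreated libraries are common to them. The median over the 36 was -0.34, against -0.03 for all tested genes, and both 3 h libraries lay below both 0.5 h libraries for 25 genes (69.4%, against 35.4% of all tested genes). Both lay above for 1 of the 36, Atp2a2, against 3334 of all 15895 tested genes. With the replicate block 7 were lower (19.4%, against 15.6% of all tested genes), the added genes being Cacnb4, Cacng2, Scn2a and Scn2b. Each of the 3 calls of the fit without the block depended on which library was left out. The median over the 36 ran from -0.60 to -0.12 in the fits with 1 library left out. Its ends were the fits without 3 h replicate 1 and without 3 h replicate 2.

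Gene span was looked at because most channel genes are long. The 36 had a median span of 111.4 kb, against 24.4 kb over 15609 tested genes with an annotated span. All 6 genes called at 3 h span 100 to 300 kb, a range that holds 14 of the 36, whose median log2 change was -0.54, against -0.10 for all 1785 tested genes of that span. For spans over 300 kb the medians were -0.40 for 7 channel and pump genes and -0.25 for all 539. From 30 to 100 kb they were -0.23 for 8 genes and -0.01 for all, and from 10 to 30 kb they were -0.28 for 7 genes and 0.00 for all. The share of all genes called lower was 8.01% from 100 to 300 kb and 5.57% above.

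Relatives and partners of these genes were counted in 3 lists, none of which held a call at 0.5 h. Of 30 tested relatives of the channel and pump families, 2 rose and 2 fell at 3 h, with a median log2 change of -0.28. These counts are near the background of 8.71% higher and 6.84% lower over all tested genes. With the replicate block they were 3 higher and 7 lower, against 2963 higher and 2955 lower (18.6%) of all 15895 tested genes. Slc24a2, a potassium-dependent sodium-calcium exchanger, fell to 8.68 and 7.89 cRPKM at 3 h, against 12.33 and 17.16 cRPKM in untreated libraries (log2 change -0.77 ± 0.19; edgeR adjusted p = 0.046), and Unc79, a subunit of the sodium leak channel, to 8.0 and 7.49 cRPKM, against 10.97 and 11.34 (-0.47 ± 0.10; adjusted p = 0.033). Atp2a1, the SERCA gene of skeletal muscle, rose to 0.15 and 0.23 cRPKM at 3 h, against 0.04 and 0.03 cRPKM in untreated libraries (2.54 ± 0.33; adjusted p = 0.011). Scn4a, the muscle sodium channel, was called higher at 0.06 and 0.03 cRPKM at 3 h, against 0.00 listed in both untreated libraries (adjusted p = 0.034). Both of these muscle genes stayed far below the neuronal members of their families.

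Of 18 genes of intracellular calcium release, store entry and mitochondrial uptake, 0 rose and 2 fell, with a median of -0.15, against the same background of 8.71% and 6.84%. With the block 2 were higher and 4 lower, against 2963 and 2955 of all 15895 tested genes. Orai1, the pore of store-operated entry, stood at 4.02 and 3.87 cRPKM at 3 h, against 6.21 and 6.96 cRPKM in untreated libraries (log2 change -0.68 ± 0.13; edgeR adjusted p = 0.027), and Mcu, the mitochondrial calcium uniporter, at 12.61 and 10.79, against 17.28 and 17.73 (-0.52 ± 0.12; adjusted p = 0.040). Of 29 tested channel partners, 2 rose and 2 fell, with a median of -0.24, again near the background of 8.71% and 6.84%. In the fit with the block 3 were higher and 4 lower, against the same 2963 and 2955 of all tested genes. Fgf12, an intracellular factor that binds sodium channels, fell to 20.44 and 18.5 cRPKM at 3 h, against 27.19 and 28.76 cRPKM in untreated libraries (-0.46 ± 0.10; adjusted p = 0.039). Rimbp2, which tethers presynaptic calcium channels to the active zone, fell to 10.1 and 8.51 cRPKM, against 15.03 and 19.8 (-0.84 ± 0.18; adjusted p = 0.035). The small GTPases Gem and Rrad, which bind calcium channel beta subunits and lower the current, rose: Gem measured 4.43 and 4.58 cRPKM untreated, 7.89 and 9.61 at 0.5 h, and 24.86 and 85.12 at 3 h (log2 change 3.64 ± 0.55; adjusted p = 0.015), and Rrad 0.51 and 0.45, 0.54 and 0.53, and 1.37 and 1.19 (1.47 ± 0.24; adjusted p = 0.018). Without untreated replicate 1 or 2, 0 genes of these 3 lists were called in either direction. Without 3 h replicate 2 or either 0.5 h library, Atp2a1, Scn4a, Gem and Rrad kept their calls and the lower calls were lost. Without 3 h replicate 1, Slc24a2 and Scn4a lost theirs.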

How the data were processed

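RNA was sequenced in 6 libraries of mouse hippocampal neurons. Per the submitters' processing notes, reads were aligned with Bowtie to mm9; versions, annotation and multi-mapping rules are not given in those notes or the labels. Each deposited table lists 22667 genes by Ensembl identifier, of which 21553 have values. The first deposited column holds the authors' RPKM, which they call cRPKM; it was taken as reads scaled to effective gene length and to library size. The second deposited column holds raw counts, whole numbers that the authors left unscaled. A later-build GENCODE annotation named 94.9% of the genes and gave spans and shared exons.

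Counts were tested in edgeR 4.0.16 (R 4.3.3) with TMM scaling, filterByExpr at a minimum count of 10 (15895 genes kept), and the quasi-likelihood test, fitting the 6 libraries together by group (3 residual degrees of freedom). Adjustment was Benjamini-Hochberg over all genes tested, with a threshold of 0.05. The steps were tested on simulated data that had no replicate effect and a smaller spread between libraries than these data. That simulation does not show how the steps perform on these libraries. Alternatives were library totals, DESeq2 size factors, no filter, DESeq2 1.42.0, limma-voom (limma 3.58.1), a replicate block and leaving out each library. Library totals are in the report; 34 of the 36 genes had over 900 counts in every library.

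Groups share replicate numbers 1 and 2. Deviations of same-numbered libraries correlated over genes (r = 0.81, 0.58 and 0.61 for the 3 pairs of groups), and a principal component with 33.2% of the variance separated the numbers, so the numbers were treated as pairing; this comes from the data, not from the labels. Blocked values stand beside a result where they change a call or move a count by over 1.5 times.

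Per-library values and statistics are given for genes called in any comparison with or without the block, for the highest gene of each family in untreated libraries, and for genes whose groups do not overlap with a log2 change of at least 0.58 in size; in the lists, for called genes. The 36 genes and the lists were chosen with earlier results of these data known.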

Additional observations from a re-analysis of the deposited data

Results flagged for a closer look

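For 3 genes the effect of KCl differed between its 2 times in a direct edgeR test, 3 h against 0.5 h, with the untreated libraries common to both. Atp2b2 had a log2 difference of -0.94, Scn3a one of -0.70 and Cacna2d2 one of -0.53. Each was lower in both 3 h libraries than in both 0.5 h libraries, and none was called at 0.5 h against untreated. The adjusted p was 0.051 to 0.080 with either untreated library left out and 0.12 to 0.18 with either 0.5 h library left out. Without 3 h replicate 2 it was 0.046 for Atp2b2, 0.086 for Scn3a and 0.051 for Cacna2d2. Groups of 2 libraries are too small to look for single libraries that stand apart.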

How the results depend on the processing

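No result changed direction in a way that passed the test. Scaling by DESeq2 size factors, no filter and limma-voom left the counts of channel and pump genes within 1.5 times. At 3 h against untreated, 6 genes were lower, against 12 with DESeq2 and 12 with the replicate block; pores gave 5 and 6, auxiliary subunits 5 with DESeq2, and pumps 2 and 2. At 3 h against 0.5 h the count of 3 became 5 with library totals, 7 with DESeq2 and 7 with the replicate block. These held 2, 2 and 2 pores and 2, 4 and 4 auxiliary subunits. Over all tested genes the block gave 18.6% lower at 3 h against untreated and 15.6% at 3 h against 0.5 h, in place of 6.84% and 4.87%. Library totals gave 1037 lower at 3 h against 0.5 h, in place of 774. The DESeq2 counts have no share over all genes beside them. The block changed no other call of channel and pump genes than those named. With 1 library left out, the counts at 3 h against untreated ran from 0 to 20 genes, 0 to 9 pores, 0 to 6 auxiliary subunits and 0 to 5 pumps, and at 3 h against 0.5 h from 0 to 14 genes, 0 to 8 pores, 0 to 3 auxiliary subunits and 0 to 3 pumps. The group left with 1 library was then assumed to vary like the others. The upper ends of these count ranges have no share over all genes beside them. They are therefore not read as a result about the channel and pump genes. By the SD of the medians within replicate 1 and replicate 2, median log2 changes moved beyond the spread at 0.5 h for all 36 genes (-0.147 to 0.0089) and for auxiliary subunits (-0.202 to 0.0478), and at 3 h against 0.5 h for pumps (-0.602 to 0.031). The other medians stayed within that spread, though those at 3 h against untreated reached from -0.711 to -0.135 for pores. The causes were not tested. Depth limits Scn4b, with 21 to 38 counts in a library.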

Other observations

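Replicate 2 differed from replicate 1 by more than treatment did for some auxiliary genes. Cacng3, an AMPA receptor auxiliary subunit, held 14.94 and 27.76 cRPKM in untreated libraries, 14.45 and 26.47 at 0.5 h, and 13.50 and 21.82 at 3 h, with the second library higher each time. Its relative Cacng4 went the other way, with 42.39 and 31.67, 42.49 and 29.78, and 38.96 and 23.13 cRPKM. The astrocyte gene Gfap also separated the numbers, at 22.38 and 307.34 cRPKM in untreated libraries, 22.76 and 335.26 at 0.5 h, and 24.58 and 474.96 at 3 h. These genes were chosen after their values were seen.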
